A study of Mus musculus with 8 samples.

Results

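The data described here compare 3T3-L1 adipocytes exposed to tunicamycin for 12 h with control adipocytes of the same time point. They comprise 2 tunicamycin arrays and 1 control array of the 8 arrays in the series, with all 45101 probe sets of each array. 3T3-L1 is an established mouse fibroblast line whose cells turn into fat cells when differentiated. The series also holds 1 tunicamycin and 1 control array of the 4 h time point, and 1 tunicamycin and 2 control arrays of the 8 h time point. Every group is the same cell line and no genetic change is named. The control is described in the labels only as a control, and neither the dose nor the vehicle is given in the sources used here. The labels call replicates biological.

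Tunicamycin blocks the enzyme encoded by Dpagt1, which loads the first sugar onto the lipid carrier used for N-linked glycosylation. Glycoproteins made without their sugars fold poorly in the endoplasmic reticulum (ER), and the ER sensors PERK, IRE1 and ATF6 then start the unfolded protein response. ATF6 and the IRE1 product XBP1 raise chaperones and degradation factors, while PERK lowers general translation and raises ATF4 and CHOP. Fat cells secrete large amounts of protein and depend on insulin signalling and on the transcription factors PPARgamma and C/EBPalpha.

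Values below are intensities after quantile normalization over the 8 arrays, in arbitrary units that are comparable between arrays but not between genes. Each log2 fold change is tunicamycin over control on the scale log2(intensity + 2.96), where 2.96 is a pseudocount, so changes of low genes are understated. After it stand the limma standard error (SE) and the p-value adjusted over all 10916 tested genes (Benjamini-Hochberg, two-sided). Genes with an adjusted p under 0.05 are called higher or lower. The single 12 h control gives no spread of its own, so the test assumes that it varied like the groups with 2 arrays (8 h control and 12 h tunicamycin). Over the tested genes the 2 tunicamycin arrays correlated at r = 0.973 with each other and at 0.924 and 0.930 with the 12 h control, which correlated at 0.976 to 0.979 with the other 3 controls. The 3' to 5' ratios of the control probe sets, a sign of RNA quality, were 1.71 and 1.67 for beta-actin in tunicamycin cells and 1.51 in control cells. For pyruvate carboxylase they were 12.6 and 6.74 in tunicamycin cells and 13.9 in control cells. The part of RNA quality in the results was not tested.

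Tunicamycin changed the RNA of many genes at 12 h, in both directions. Of the 10916 genes, 2295 (21.0%) were called, 1100 (10.1%) higher and 1195 (10.9%) lower. Of these, 451 were at least 2-fold higher and 547 at least 2-fold lower. Counts of called members in every gene list below are to be read against the 10.1% higher and 10.9% lower. The median log2 difference of all tested genes was -0.01. Scaling the arrays by their medians gave 853 higher and 1454 lower genes (37% higher, against 47.9%), with a median of -0.1. The deposited scaling gave 21 higher and 53 lower (28.4% higher), with a median of -0.388. Of the called genes, 1039 of 1100 (94.5%) lay above all 4 control arrays of the series in both tunicamycin arrays, and 1145 of 1195 (95.8%) lay below all 4. Among all tested genes, 51.8% lay beyond the 4 controls on one side, and 81.8% had both tunicamycin arrays on one side of the 12 h control. The plot of effect against intensity shows both directions over the whole range of intensities.

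**Figure D1:**
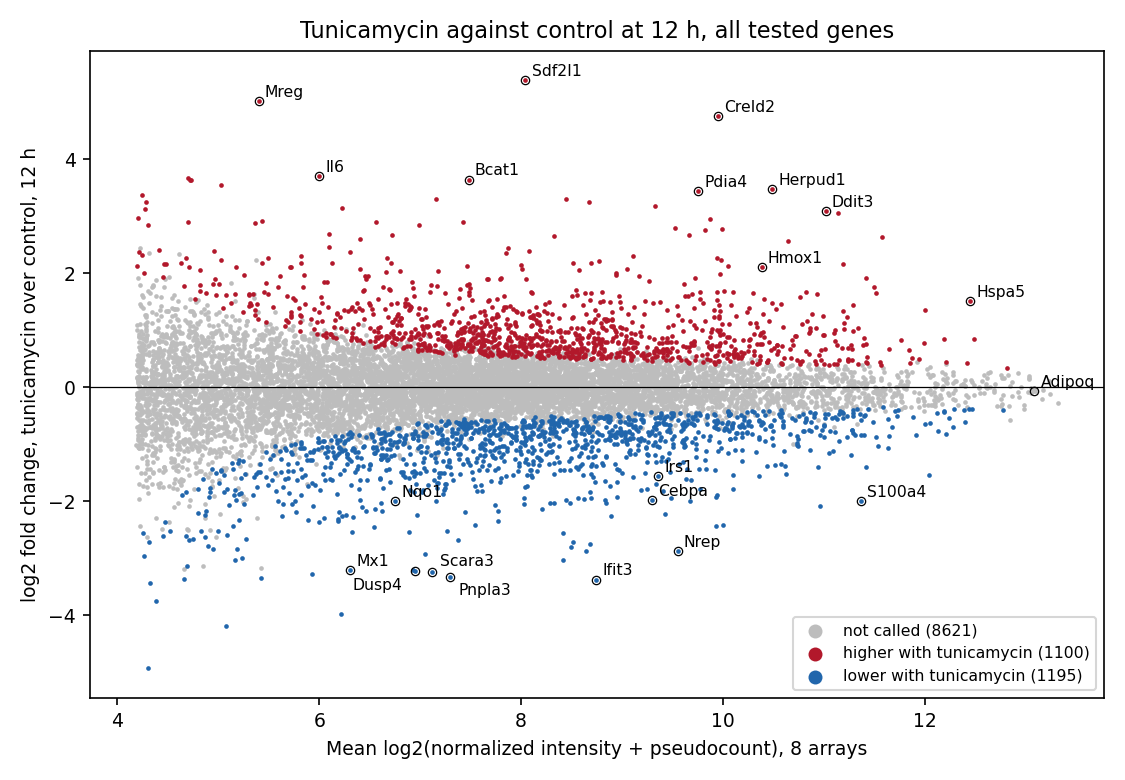
Log2 fold change of tunicamycin over control at 12 h (vertical axis) against the mean log2(normalized intensity + pseudocount) over the 8 arrays (horizontal axis), 1 point per tested gene. Red points are the 1100 genes called higher, blue points the 1195 called lower and grey points the genes not called. Sdf2l1 and Mreg lie highest among the labelled genes and Ifit3 lowest.

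The ER chaperones had the highest median of the gene lists examined. Of 16 tested chaperones and co-chaperones, 15 rose and 0 fell, with a median log2 difference of 1.65, against 10.1% of all tested genes called higher. Sdf2l1, an ER protein that works with the BiP co-chaperone DNAJB11, had intensities of 1899.7 and 1779 in tunicamycin cells and 41.0 in control cells (log2 5.39 ± 0.21 SE, adjusted p = 7.75e-06). Creld2, a stress-inducible ER protein, had 6395 and 6261 in tunicamycin cells and 231 in control cells (log2 4.76 ± 0.12 SE, adjusted p = 1.1e-06). Both tunicamycin arrays were far above each of the 4 controls for both genes, and 13 of the 16 chaperones were also called higher at 8 h. Hspa5, which encodes the central ER chaperone BiP, had 9240.5 and 9319 in tunicamycin cells and 3259 in control cells (log2 1.51 ± 0.10 SE, adjusted p = 0.000105). Hsp90b1, its partner GRP94, had 6324 and 7195 in tunicamycin cells and 2633 in control cells (log2 1.36 ± 0.12 SE, adjusted p = 0.000232). Both had smaller log2 differences than their co-chaperones Dnajb11 (log2 2.77 ± 0.14 SE, adjusted p = 2.96e-05) and Dnajc3 (log2 2.75 ± 0.20 SE, adjusted p = 0.000114). Quantile normalization gives every array the same top value. The control values of Hspa5 and Hsp90b1 lay nearer to it than those of Dnajb11 (455) and Dnajc3 (414). Over the alternative settings, some without a shared top value, Hspa5 was at log2 1.04 to 1.51. Hsp90b1 was at 0.912 to 1.8, Dnajb11 at 2.39 to 2.82 and Dnajc3 at 2.4 to 3.33. The part of the shared top value in these differences was not tested. The lectin chaperones Calr and Canx rose by 0.86 and 0.75 on the log2 scale, the smallest changes among the 15, with Canx at log2 0.48 against pooled controls. Calr had 4383 in control cells, also nearer to the shared top value. Dnajc1 (log2 0.04 ± 0.19 SE, adjusted p = 0.909) was the 1 member that was not called.

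Of 17 disulfide isomerases and ER oxidases, 12 rose and 1 fell (median 1.09). Pdia4, a disulfide isomerase, had 2980.4 and 3192 in tunicamycin cells and 279.7 in control cells (log2 3.45 ± 0.13 SE, adjusted p = 6.67e-06). Ero1a, an oxidase that recharges the isomerases, had 5419 and 5968 in tunicamycin cells and 682 in control cells (log2 3.05 ± 0.16 SE, adjusted p = 2.96e-05), and its relative Ero1b had 303 and 241 in tunicamycin cells and 28.0 in control cells (log2 3.14 ± 0.27 SE, adjusted p = 0.000224). With all probe sets averaged, the log2 difference of Ero1b was 2.02. For these 3 genes both tunicamycin arrays lay above all 4 controls. The member that fell was Tmx1, a membrane-bound thioredoxin (log2 -0.65 ± 0.19 SE, adjusted p = 0.0445), a call that was lost without tunicamycin replicate 1 (adjusted p = 0.0815) or without either 8 h control (adjusted p = 0.0803 and 0.0799).

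ER-associated degradation removes misfolded proteins to the proteasome. Of 21 tested members, 12 rose and 0 fell (median 0.859). Herpud1, a membrane organiser of the degradation complex, had 4922 and 5268 in tunicamycin cells and 452 in control cells (log2 3.48 ± 0.13 SE, adjusted p = 6.67e-06). The core ligase Syvn1 had 2186 and 1937 in tunicamycin cells and 423 in control cells (log2 2.27 ± 0.14 SE, adjusted p = 6.62e-05), and its partner Sel1l had 3185 and 2978 in tunicamycin cells and 396 in control cells (log2 2.95 ± 0.14 SE, adjusted p = 1.6e-05). The mannosidase-like factor Edem1 (log2 2.68 ± 0.17 SE, adjusted p = 6.32e-05) and the derlins Derl1 and Derl2 (log2 1.26 and 1.39) also rose. Of 31 subunits of the proteasome itself, 1 rose, 4 fell and 26 were not called (median -0.0947).

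Promoter sequences of the tested genes were searched for known motifs, and those of some strongly changed genes with a match are printed below. The windows run from 250 bases before to 50 after the RefSeq gene start on GRCm38.p6. Of the 10916 tested genes, 8878 had at least 1 window, and 1809 of these had several. A gene was counted once if any of its windows held the motif. Motifs were searched on both strands: ERSE (CCAAT, any 9 bases, CCACG) and ERSE-II (ATTGG, any 1 base, CCACG), known elements of ATF6 and XBP1, UPRE (TGACGTGG), and the C/EBP-ATF composite element of ATF4 and CHOP (TGATGNAA). UPRE holds CGTGG, the reverse complement of the CCACG that ends both ERSE forms. ERSE was found for 13 of the 8878 genes (0.146%), and 10 of these 13 genes were called higher: Creld2, Ero1b, Dnajc3, Pdia6, Syvn1, Alg12, Hspa5, Hsp90b1, Calr and Canx. The other 3 ERSE genes were not called: Pan2 (log2 0.40), Acacb (log2 0.03) and Adcy3 (log2 -0.72). Among genes with a window, it was found for 10 of the 894 called higher (1.12%) and for 0 of the 942 called lower. ERSE-II was found for 8 genes (0.0901%), 4 of them called higher (Herpud1, Dnajb11, Rcl1 and Nucb1). UPRE was found for 1.09% of all genes with a window, 2.8% of those called higher and 0.849% of those called lower. The composite element was found for 2.61%, 4.81% and 2.87%. In the same order, 2 further motifs that were searched, CRE (TGACGTCA) and SRE (TCACNCCAC), were found for 3.53%, 4.14% and 2.76% and for 1.37%, 1.23% and 1.17%. Counted per window over all 32851 windows, a different unit, the shares were 0.119% (ERSE), 0.0365% (ERSE-II), 0.676% (UPRE) and 3.97% (composite). A match is a description of the letters, not of binding. The first 4 windows below show ERSE, ERSE-II and the composite element in genes that rose. The last 2 hold a CRE (TGACGTCA, found for 3.53% of the 8878 genes) and are of a gene that rose and one that fell. Capitals mark the motif matches. The gene start is the base after position 250, and all are 5' to 3' on the gene's strand.
Creld2 (chr15:88819396-88819695, plus strand, ERSE on the minus strand): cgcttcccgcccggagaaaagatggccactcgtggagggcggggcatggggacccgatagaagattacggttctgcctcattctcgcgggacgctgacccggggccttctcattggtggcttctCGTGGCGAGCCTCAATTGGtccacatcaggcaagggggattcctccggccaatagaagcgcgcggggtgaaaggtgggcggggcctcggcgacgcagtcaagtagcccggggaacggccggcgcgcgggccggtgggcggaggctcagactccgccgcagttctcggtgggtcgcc
Herpud1 (chr8:94386179-94386478, plus strand, composite then ERSE-II): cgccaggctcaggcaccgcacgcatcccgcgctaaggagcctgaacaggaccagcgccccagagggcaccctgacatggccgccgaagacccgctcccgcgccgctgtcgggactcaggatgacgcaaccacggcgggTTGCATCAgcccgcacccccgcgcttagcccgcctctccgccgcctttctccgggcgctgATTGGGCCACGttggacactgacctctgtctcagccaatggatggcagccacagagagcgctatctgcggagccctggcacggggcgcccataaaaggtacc
Atf3 (chr1:191183284-191183583, minus strand, composite): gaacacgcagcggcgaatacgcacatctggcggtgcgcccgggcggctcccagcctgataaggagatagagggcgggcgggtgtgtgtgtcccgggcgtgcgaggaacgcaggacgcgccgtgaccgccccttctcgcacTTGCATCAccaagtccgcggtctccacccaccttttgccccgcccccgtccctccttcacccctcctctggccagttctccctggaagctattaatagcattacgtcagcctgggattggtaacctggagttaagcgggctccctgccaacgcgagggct
Trib3 (chr2:152344011-152344310, minus strand, composite after the gene start): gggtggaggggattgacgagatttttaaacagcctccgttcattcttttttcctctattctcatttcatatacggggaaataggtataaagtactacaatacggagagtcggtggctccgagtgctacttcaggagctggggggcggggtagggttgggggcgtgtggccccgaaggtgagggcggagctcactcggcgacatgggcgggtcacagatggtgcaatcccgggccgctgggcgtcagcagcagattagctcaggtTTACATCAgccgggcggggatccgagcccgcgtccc
Ppp1r15a (chr7:45526219-45526518, minus strand, CRE): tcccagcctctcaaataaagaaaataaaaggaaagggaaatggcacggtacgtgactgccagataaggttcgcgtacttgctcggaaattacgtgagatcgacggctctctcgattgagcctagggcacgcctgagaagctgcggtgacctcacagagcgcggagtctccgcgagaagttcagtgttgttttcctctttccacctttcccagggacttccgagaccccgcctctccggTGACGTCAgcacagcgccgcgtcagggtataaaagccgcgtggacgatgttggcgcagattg
Pnpla3 (chr15:84167566-84167865, plus strand, CRE): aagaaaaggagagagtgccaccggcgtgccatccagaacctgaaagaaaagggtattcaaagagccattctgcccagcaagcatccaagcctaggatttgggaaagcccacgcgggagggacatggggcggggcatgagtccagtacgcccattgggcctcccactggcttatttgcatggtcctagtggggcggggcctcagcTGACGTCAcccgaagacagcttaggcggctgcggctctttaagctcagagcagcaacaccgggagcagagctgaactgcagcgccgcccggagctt

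Of the 19 tested sensors and factors of the unfolded protein response, 12 rose and 2 fell (median 0.76). All 3 sensor genes rose: Atf6 had 316 and 322 in tunicamycin cells and 94.9 in control cells (log2 1.72 ± 0.18 SE, adjusted p = 0.000474), the PERK gene Eif2ak3 rose by 1.27 and the IRE1alpha gene Ern1 by 1.09 on the log2 scale. Averaging all probe sets of a gene ended the calls of Eif2ak3 (adjusted p = 0.395) and Ern1 (adjusted p = 0.771). Xbp1, whose spliced and unspliced forms the array does not separate, had 2922 and 3110.2 in tunicamycin cells and 1779 in control cells (log2 0.76 ± 0.11 SE, adjusted p = 0.0022). Against all 4 controls pooled, the log2 difference of Xbp1 was 0.43. Ppp1r15a encodes GADD34, which reverses the phosphorylation that PERK puts on eIF2alpha. It had 1264 and 1151 in tunicamycin cells and 123 in control cells (log2 3.26 ± 0.19 SE, adjusted p = 5.04e-05). The 2 members that fell are kinases of the same eIF2alpha site, Eif2ak2 (PKR, log2 -1.48 ± 0.18 SE, adjusted p = 0.00112) and Eif2ak4 (GCN2, log2 -0.90 ± 0.26 SE, adjusted p = 0.0413). The call of Eif2ak4 was lost when any 1 of the 4 replicate arrays was left out (adjusted p of 0.0672 to 0.0823).

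ATF4 and CHOP are the transcription factors of the PERK arm. Of 20 tested targets, 11 rose and 1 fell (median 0.959). Ddit3, the CHOP gene, had 6929 and 6627 in tunicamycin cells and 794 in control cells (log2 3.09 ± 0.11 SE, adjusted p = 6.67e-06). Trib3, a pseudokinase that inhibits AKT, had 2118 and 2244 in tunicamycin cells and 239 in control cells (log2 3.17 ± 0.13 SE, adjusted p = 1.03e-05). Atf3, a stress transcription factor, had 371 and 358 in tunicamycin cells and 34.2 in control cells (log2 3.31 ± 0.20 SE, adjusted p = 5.34e-05). The tunicamycin arrays exceeded every control in these genes. Bcl2l11, the gene of the death-promoting protein BIM, was the member that fell. It had 308 and 135 in tunicamycin cells and 568 in control cells (log2 -1.46 ± 0.38 SE, adjusted p = 0.0288). The 2 tunicamycin values of Bcl2l11 differed widely, though both were below the control, and without tunicamycin replicate 2 its log2 difference was -0.87. In the list of 19 apoptosis genes, 1 rose (Bid), 2 fell (Bcl2l11 and Casp12) and 16 were not called. The adjusted p of Bid was 0.127 with all probe sets averaged, and that of Casp12 was 0.0717 without tunicamycin replicate 1.

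ATF4 is known to raise genes that supply amino acids. Of 22 tested genes of amino acid synthesis and transport, 18 rose and 1 fell (median 1.08). Bcat1, the cytosolic branched-chain aminotransferase, had 1005 and 757 in tunicamycin cells and 67.0 in control cells (log2 3.64 ± 0.21 SE, adjusted p = 4.92e-05). The transporter pair Slc3a2 and Slc7a5 rose by 2.16 and 1.95 on the log2 scale, and Slc7a1, a carrier of basic amino acids, by 2.3. Asparagine synthetase, Asns, had 3794 and 3695 in tunicamycin cells and 1811 in control cells (log2 1.05 ± 0.14 SE, adjusted p = 0.00152). The transporter Slc7a6 (log2 -0.61 ± 0.15 SE, adjusted p = 0.0251) was the member that fell, and its adjusted p was 0.0574 without tunicamycin replicate 1 and 0.0578 without either 8 h control. Of 19 cytosolic aminoacyl-tRNA synthetases, which load amino acids onto tRNAs, 13 rose and 0 fell (median 0.888). Wars, for tryptophan, had 1128 and 1004 in tunicamycin cells and 268 in control cells (log2 1.98 ± 0.15 SE, adjusted p = 0.000131). The composite motif was found for 5 of the 12 synthetase genes with a window (Aars, Gars, Iars, Tars and Yars), and each of these 5 genes rose. Of 21 translation initiation factors, 7 rose and 0 fell (median 0.328), while 23 of 25 cytosolic ribosomal protein genes were not called.

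Some genes of the glycosylation pathway that tunicamycin blocks rose. Dpagt1, the drug's own target enzyme, had 491 and 305 in tunicamycin cells and 131 in control cells (log2 1.54 ± 0.27 SE, adjusted p = 0.00562). Both tunicamycin arrays lay above the 4 controls, although they differed from each other. Of 33 genes of lipid-linked oligosaccharide assembly and transfer, 10 rose, 0 fell and 23 were not called (median 0.297). The largest was the mannosyltransferase Alg12 (log2 2.17 ± 0.22 SE, adjusted p = 0.000428). Subunits of the oligosaccharyltransferase, which transfers the finished sugar, rose for Rpn1 (log2 1.91 ± 0.12 SE, adjusted p = 5.76e-05), Ddost (log2 1.23 ± 0.13 SE, adjusted p = 0.000489), Stt3a (log2 1.03 ± 0.12 SE, adjusted p = 0.000911) and Stt3b (log2 1.01 ± 0.13 SE, adjusted p = 0.0014). With all probe sets averaged, the log2 difference of Rpn1 was 1.24. Of 9 genes of the hexosamine pathway, which makes the sugar donor UDP-GlcNAc, 5 rose and 1 fell. Its entry enzyme Gfpt1 had 1905 and 1797 in tunicamycin cells and 742 in control cells (log2 1.31 ± 0.14 SE, adjusted p = 0.00056). Averaging all probe sets ended the calls of Gfpt1 (adjusted p = 0.0748), Uap1 (adjusted p = 0.241) and Pgm3 (adjusted p = 0.0652). In that setting 1 of the 9 genes was called higher and 0 lower (median 0.233).

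Genes of entry to and exit from the ER were higher. Of 23 translocation and signal peptidase genes, 15 rose and 0 fell (median 0.789), among them the signal peptidase subunits Spcs2 (log2 1.67 ± 0.15 SE, adjusted p = 0.00027) and Spcs3 (log2 1.55 ± 0.15 SE, adjusted p = 0.000418) and the channel subunit Sec61b, at log2 1.04. Of 31 coat and cargo receptor genes of ER to Golgi traffic, 17 rose and 0 fell (median 0.413). The COPII subunits Sec23b (log2 1.67 ± 0.15 SE, adjusted p = 0.000295) and Sec24d (log2 1.48 ± 0.14 SE, adjusted p = 0.000325) and the retrieval receptor Kdelr3 (log2 1.54 ± 0.15 SE, adjusted p = 0.000385) changed most. Of 17 phospholipid synthesis genes, 4 rose and 1 fell. The list of 10 reported substrates of IRE1-dependent RNA decay had 0 genes higher and 5 lower (median -0.456). Scara3, a scavenger receptor family member, had 33.2 and 37.9 in tunicamycin cells and 363 in control cells (log2 -3.25 ± 0.19 SE, adjusted p = 5.04e-05). The other 4 fell by less: Tapbp by 0.89, Pdgfrb by 0.67, Pmp22 by 0.46 and Col6a1 by 0.43 on the log2 scale. Against all 4 controls pooled the log2 difference of Tapbp was -0.54. The call of Pdgfrb was lost against all 4 controls pooled (adjusted p = 0.103) and those of Pmp22 and Col6a1 without tunicamycin replicate 2 (adjusted p of 0.0696 and 0.0576). That of Pmp22 was also lost without either 8 h control (adjusted p of 0.06 and 0.0594).

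**Figure D2:**
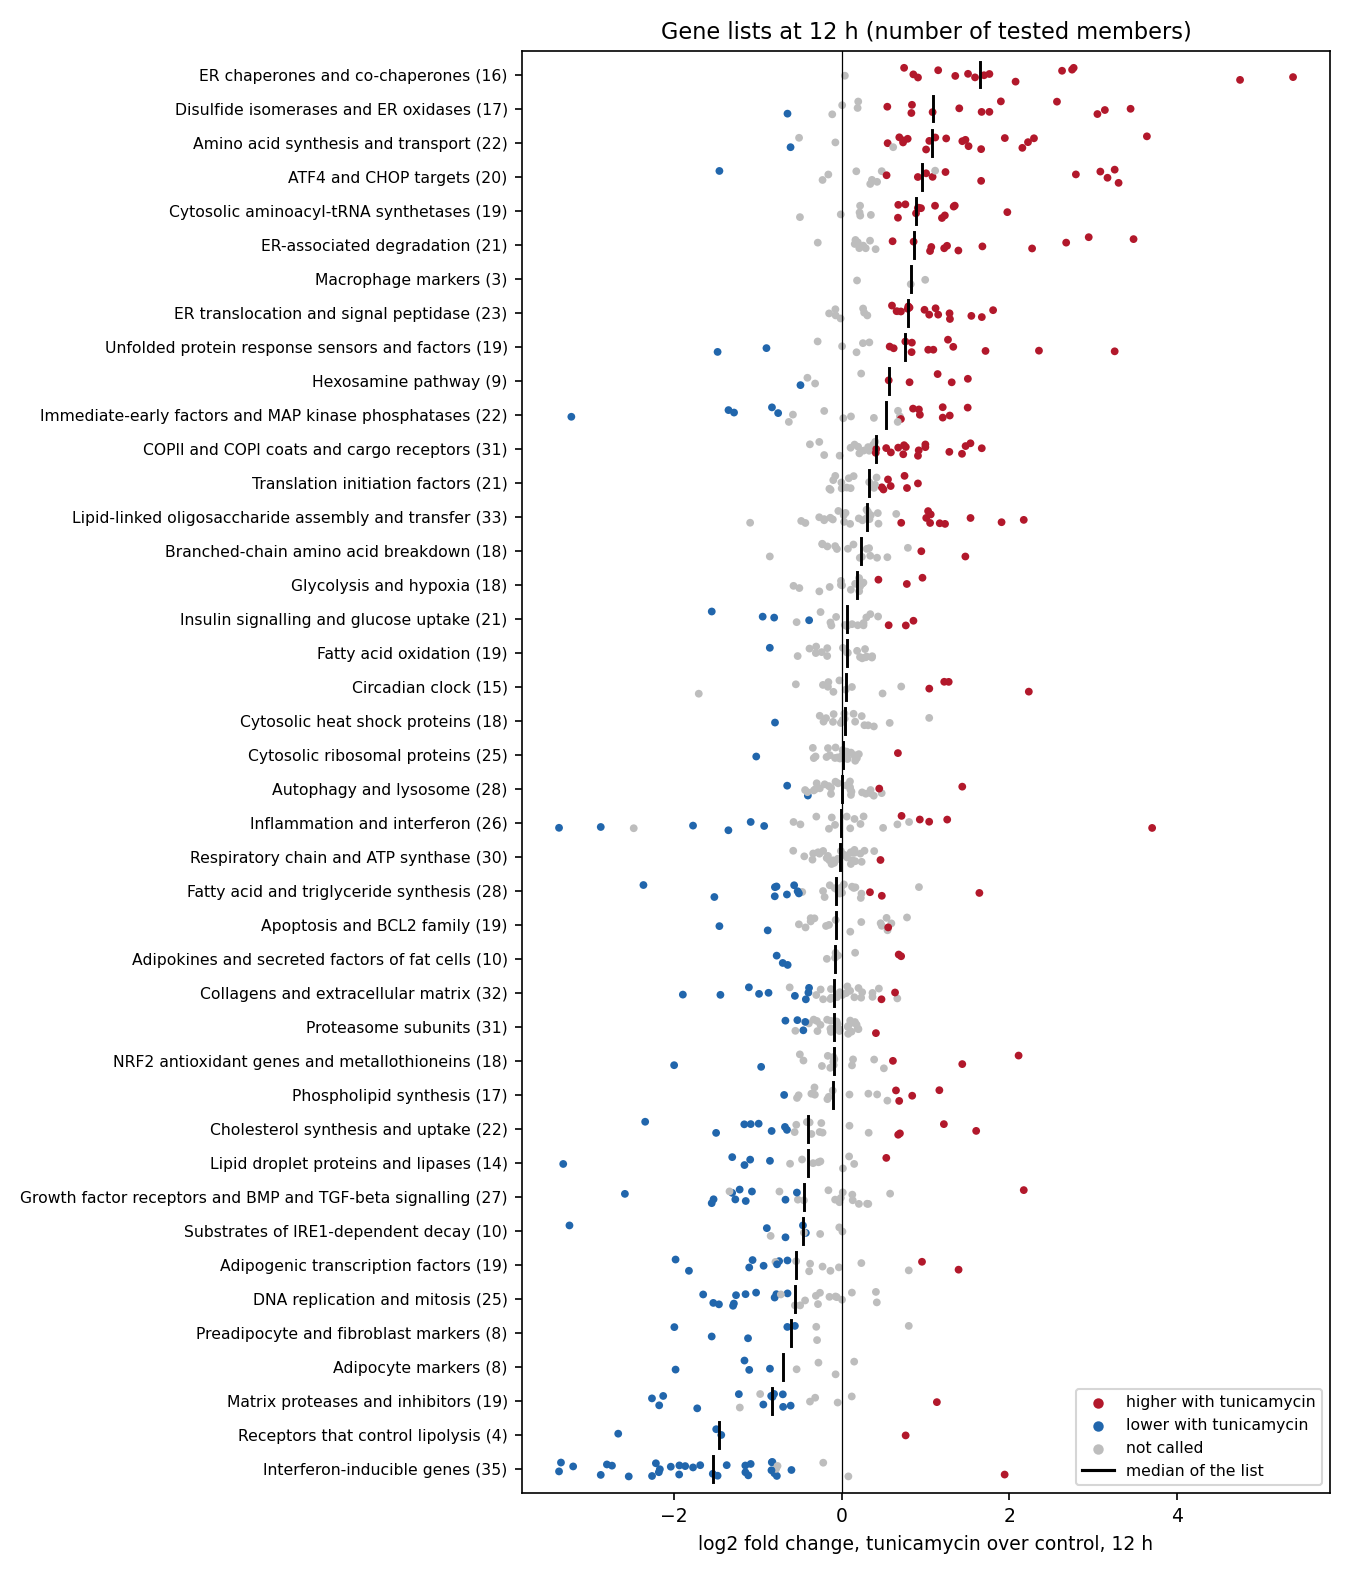
Log2 fold change at 12 h (horizontal axis) of each tested member of 41 gene lists and of a list of interferon-inducible genes that was written after the values were seen, with the number of tested members in parentheses. Points are genes, coloured by call, and black bars are list medians. ER chaperones have a median of 1.65 and interferon-inducible genes of -1.54.

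Several fat cell transcription factors fell. Of 19 adipogenic transcription factors, 8 fell and 2 rose (median -0.543). Cebpa, which maintains the mature fat cell program, had 282 and 223 in tunicamycin cells and 999.7 in control cells (log2 -1.98 ± 0.21 SE, adjusted p = 0.000571). Pparg, the main fat cell regulator, had 591 and 599 in tunicamycin cells and 1283 in control cells (log2 -1.1 ± 0.12 SE, adjusted p = 0.000618). Both genes lay below all 4 controls in both tunicamycin arrays. Those that rose were Klf4 (log2 1.4 ± 0.22 SE, adjusted p = 0.00306) and Cebpd (log2 0.96 ± 0.15 SE, adjusted p = 0.00338), which act early in fat cell differentiation. The adjusted p of Cebpd was 0.0543 with all probe sets averaged. Adipoq, the gene of adiponectin, had 8056 and 8016 in tunicamycin cells and 8449.8 in control cells, a log2 difference of -0.07 ± 0.11 (SE) with an adjusted p of 0.678. Fabp4, a fatty acid carrier, had 8255 and 9584 in tunicamycin cells and 10780.1 in control cells, where it lay at the top of the normalized scale, as on the other 3 control arrays (log2 -0.28, adjusted p = 0.115). Fabp4 passed the test with all probe sets averaged (log2 -1.65, adjusted p = 0.000932) and against pooled controls (log2 -0.28, adjusted p = 0.0126), and without tunicamycin replicate 1 its log2 difference was -0.17. The glucose transporter Slc2a4 had 260.3 and 233 in tunicamycin cells and 359 in control cells (log2 -0.54 ± 0.17 SE, adjusted p = 0.0511), and its other probe set above the filter went the opposite way. Slc2a4 passed in 5 alternatives, among them pooled controls (log2 -0.63, adjusted p = 0.00684). Of 8 tested adipocyte markers, 4 fell and 0 rose (median -0.697). Their intensities, to which Adipoq, Fabp4 and the lipoprotein lipase gene Lpl contribute most, summed to 27080 and 28460 in tunicamycin cells and 32380 in control cells. In bulk RNA, fewer cells of a type and less RNA per cell cannot be told apart.

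Insulin and lipid genes moved in both directions. Over all tested genes 10.1% were called higher and 10.9% lower. Irs1, the docking protein of the insulin receptor, had 302 and 295 in tunicamycin cells and 880.4 in control cells (log2 -1.55 ± 0.13 SE, adjusted p = 0.00022). The regulatory kinase subunit Pik3r1 (log2 -0.94 ± 0.14 SE, adjusted p = 0.00272) also fell, and the receptor gene Insr had 136 and 136 in tunicamycin cells and 125 in control cells (adjusted p = 0.736). Of the 21 tested genes of insulin signalling, 3 rose, 4 fell and 14 were not called (median 0.0636). Among 14 lipid droplet genes, 5 fell and 1 rose. Pnpla3, a lipid droplet hydrolase, had 54.9 and 23.4 in tunicamycin cells and 388 in control cells (log2 -3.32 ± 0.38 SE, adjusted p = 0.000829). Its tunicamycin values lay far below those of the 4 controls. Cidec, which helps droplets fuse, had 929.6 and 1033 in tunicamycin cells and 2194 in control cells (log2 -1.16 ± 0.13 SE, adjusted p = 0.000648). Plin2, a droplet coat protein of many cell types, was the member that rose (log2 0.53 ± 0.11 SE, adjusted p = 0.00948), with an adjusted p of 0.0564 on median-scaled arrays and a log2 difference of 0.30 against pooled controls. The hormone-sensitive lipase gene Lipe was called lower (log2 -0.86), but its log2 difference was 0.00824 with all probe sets averaged and -1.41 against pooled controls. Of the 4 genes tested in a list of lipolysis control, 3 fell. These were Hcar1, a lactate receptor that restrains lipolysis (log2 -2.67 ± 0.37 SE, adjusted p = 0.00184), the cyclic AMP phosphodiesterase Pde3b (log2 -1.5 ± 0.20 SE, adjusted p = 0.00137) and the protein kinase A subunit Prkar2b (log2 -1.44 ± 0.14 SE, adjusted p = 0.000404). Ffar2, a short-chain fatty acid receptor, rose (log2 0.76 ± 0.19 SE, adjusted p = 0.0222), and its adjusted p was 0.0562 without tunicamycin replicate 1. Against pooled controls its log2 difference was 0.46.

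Of 28 genes of fatty acid and triglyceride synthesis, 9 fell and 3 rose (median -0.0642), against 10.9% lower and 10.1% higher over all tested genes. Fasn, the fatty acid synthase, had 699.9 and 600.1 in tunicamycin cells and 1864 in control cells (log2 -1.52 ± 0.13 SE, adjusted p = 0.000251). Fads3, a desaturase family member, rose (log2 1.64 ± 0.15 SE, adjusted p = 0.000276), and the synthesis regulator Srebf1 was not called (log2 -0.13, and -0.39 with an adjusted p of 0.046 against pooled controls). Cholesterol genes moved in both directions, with 8 of 22 lower and 4 higher (median -0.399). Dhcr7, the last step to cholesterol, had 95.9 and 64.0 in tunicamycin cells and 411 in control cells (log2 -2.35 ± 0.23 SE, adjusted p = 0.000418), while Ebp, a sterol isomerase of the same stretch, had 1807 and 1885 in tunicamycin cells and 604 in control cells (log2 1.61 ± 0.13 SE, adjusted p = 0.000161). Fatty acid oxidation had 1 of 19 genes called, Cpt2 (log2 -0.86 ± 0.17 SE, adjusted p = 0.00912), and the respiratory chain 1 of 30, Ndufv1 (log2 0.46 ± 0.11 SE, adjusted p = 0.0221), whose call was lost with array medians scaled (adjusted p = 0.0799).

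**Figure D3:**
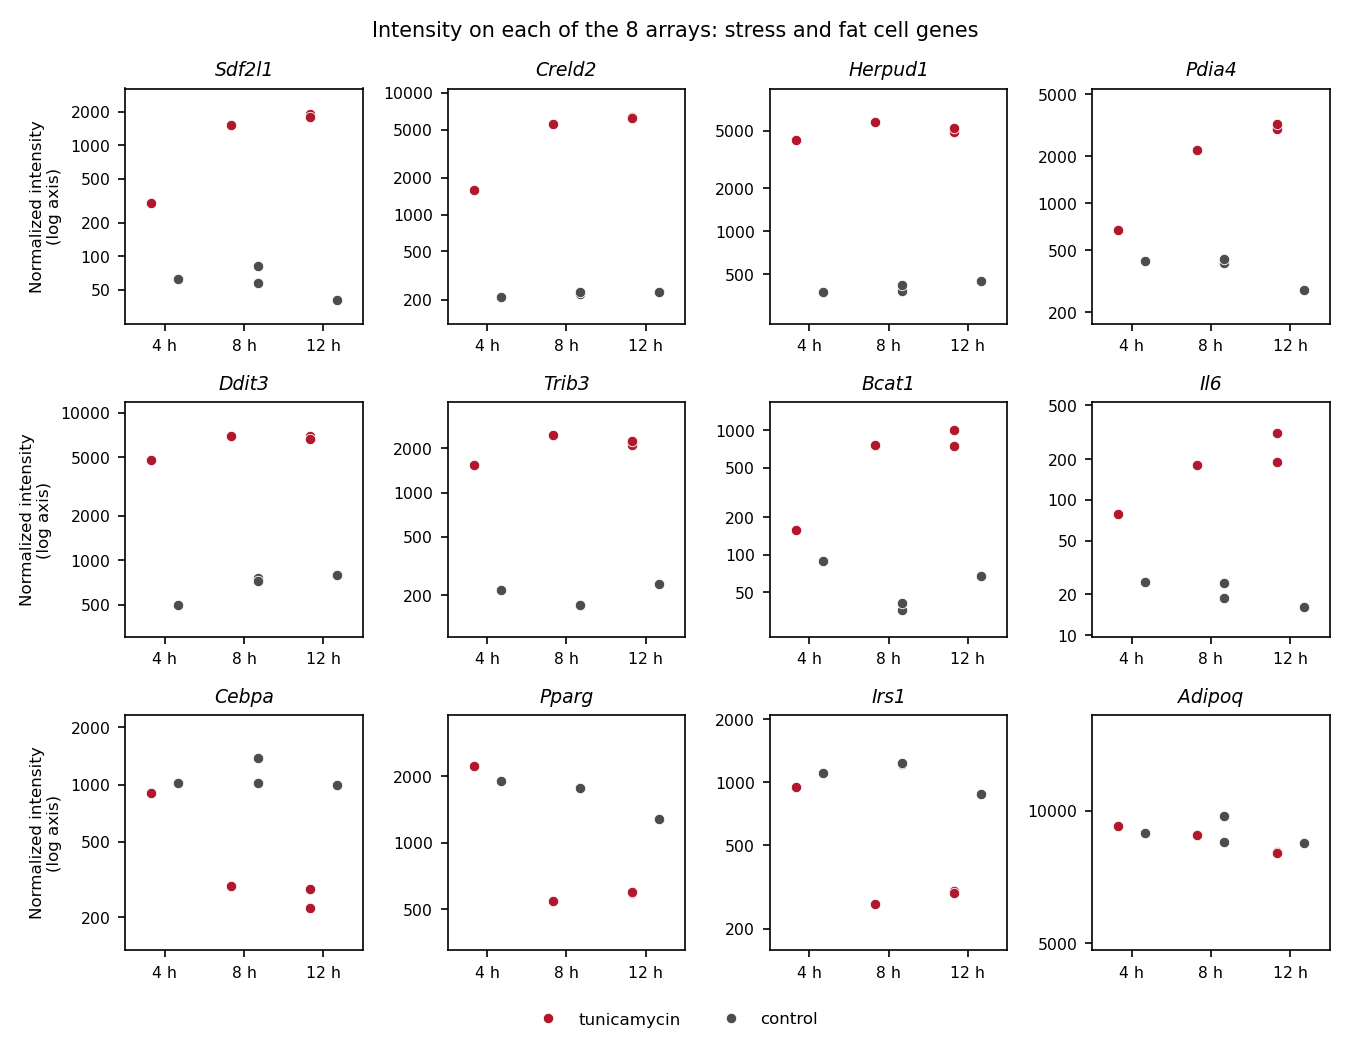
Normalized intensity (vertical axes, log scales) on each of the 8 arrays at 4, 8 and 12 h, tunicamycin in red and control in grey, 1 point per array, for 12 stress and fat cell genes. At 12 h both tunicamycin points lie above every control point for Sdf2l1 to Il6, and below every control point for Cebpa, Pparg, Irs1 and Adipoq, with Adipoq differing by only -0.07 on the log2 scale.

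A list of 40 genes known to be induced by interferon was written after their values were seen, so its counts are a description fixed by that choice and support nothing. Of the 35 that were tested, 30 fell and 1 rose (median -1.54), and 32 lay below all 4 controls in both tunicamycin arrays. Ifit3, an antiviral RNA-binding family member, had 109 and 95.8 in tunicamycin cells and 1088 in control cells (log2 -3.37 ± 0.24 SE, adjusted p = 0.000114). Mx1, an antiviral GTPase, had 7.05 and 26.1 in tunicamycin cells and 154 in control cells (log2 -3.21 ± 0.53 SE, adjusted p = 0.00401). Usp18, which damps interferon signalling, had 162 and 144 in tunicamycin cells and 745 in control cells (log2 -2.26 ± 0.18 SE, adjusted p = 0.000178). Values of the tunicamycin arrays were low together in Ifit3 and Usp18 and more scattered in Mx1. The transcription factor Irf7 (log2 -1.77 ± 0.22 SE, adjusted p = 0.00112) fell as well, whereas Stat2 (log2 -0.22) was not called. Isg20, an exonuclease, was the member that rose (log2 1.95 ± 0.26 SE, adjusted p = 0.00159).

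In the list of 26 inflammation and interferon genes, 5 rose and 6 fell, and those that fell were Ifit3, Ifit1, Irf7, Psmb8, Gbp2 and Tap1, all interferon-inducible. Il6, a secreted cytokine, had 190.4 and 314 in tunicamycin cells and 16.0 in control cells (log2 3.71 ± 0.35 SE, adjusted p = 0.000327). The chemokines Cxcl1 (log2 1.04 ± 0.17 SE, adjusted p = 0.00328) and Cxcl5 (log2 1.26 ± 0.34 SE, adjusted p = 0.0323) also rose, as did the NF-kappaB subunit gene Relb (log2 0.93 ± 0.19 SE, adjusted p = 0.011) and Tnfaip3, an inhibitor of NF-kappaB (log2 0.71 ± 0.21 SE, adjusted p = 0.0469). The call of Cxcl5 was lost when any 1 of the 4 replicate arrays was left out (adjusted p of 0.0588 to 0.0633), as was that of Tnfaip3 (0.075 to 0.101). That of Tap1 was lost without tunicamycin replicate 2 (adjusted p = 0.0662), and Psmb8 was at log2 -0.88 against pooled controls. Ccl2, a monocyte chemokine, was at log2 -0.49 and did not pass the test. Of 7 macrophage markers, 3 were tested and 0 were called. The 7 summed to 358.2 and 420.3 in tunicamycin cells and 247.9 in control cells. None of 5 endothelial markers passed the intensity filter, and 1 or 2 of them were at 0 on each array. The part of other cell types in the cytokine values was not tested.

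Genes of cell division were lower. Of 25 tested genes of DNA replication and mitosis, 11 fell and 0 rose (median -0.558). Mcm6 and Mcm5 encode subunits of the replicative helicase. Mcm6 had 229 and 186 in tunicamycin cells and 655 in control cells (log2 -1.65 ± 0.21 SE, adjusted p = 0.00114). Mcm5 had 139 and 133 in tunicamycin cells and 398 in control cells (log2 -1.53 ± 0.20 SE, adjusted p = 0.00138). Cyclin D1, Ccnd1, fell by 1.29 on the log2 scale, while Mcm2 (log2 0.12) and Pcna (log2 -0.44) were not called. The call of Mcm5 was lost when all probe sets were averaged (adjusted p = 0.0743).

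Matrix-remodelling genes and most markers of fibroblast-like cells were lower too. Of 19 matrix proteases and inhibitors, 12 fell and 1 rose (median -0.826). Adamts9, a secreted protease, had 83.4 and 73.7 in tunicamycin cells and 365 in control cells (log2 -2.18 ± 0.17 SE, adjusted p = 0.000156), and Timp4, an inhibitor, had 77.5 and 67.9 in tunicamycin cells and 247 in control cells (log2 -1.72 ± 0.18 SE, adjusted p = 0.000483). Mmp3 had 24.5 and 43.1 in tunicamycin cells and 168 in control cells (log2 -2.26 ± 0.39 SE, adjusted p = 0.0047), but against all 4 controls pooled its adjusted p was 0.131. Of 32 collagen and matrix genes, 9 fell and 2 rose (median -0.0893). Lum, a small proteoglycan, had 473 and 445 in tunicamycin cells and 1716 in control cells (log2 -1.9 ± 0.16 SE, adjusted p = 0.000224), and Fn1, fibronectin, rose (log2 0.64 ± 0.14 SE, adjusted p = 0.0163), with an adjusted p of 0.0722 when all probe sets were averaged. S100a4, a calcium-binding protein and fibroblast marker, had 1441 and 1316 in tunicamycin cells and 5509 in control cells (log2 -2.0 ± 0.12 SE, adjusted p = 4.92e-05). It lay below all 4 controls. Of the 8 preadipocyte and fibroblast markers, 5 were called lower and 0 higher (median -0.604), and 1 lay above all 4 controls (log2 0.801). Against pooled controls 6 were lower and 1 higher (median -0.341), and the call of Thy1 was lost (adjusted p = 0.711). The 8 markers summed to 21340 and 19660 in tunicamycin cells and 32630 in control cells. Their part in the matrix values was not tested.

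Of 27 growth factor receptors and TGF-beta or BMP genes, 10 fell, 1 rose and 16 were not called (median -0.451). Pdgfra had 750.2 and 723 in tunicamycin cells and 2164 in control cells (log2 -1.55 ± 0.12 SE, adjusted p = 0.000148), and the growth hormone receptor Ghr fell by 1.07 on the log2 scale. Osmr, the receptor of oncostatin M, was the member that rose, with 913 and 967 in tunicamycin cells and 206 in control cells (log2 2.17 ± 0.15 SE, adjusted p = 8.39e-05). In the list of immediate-early factors and MAP kinase phosphatases, 8 of 22 rose and 5 fell. Those that rose include the transcription factors Myc (log2 1.21 ± 0.19 SE, adjusted p = 0.00338) and Junb (log2 1.29 ± 0.21 SE, adjusted p = 0.00377), with Junb at log2 0.78 and Myc at 0.40 (adjusted p = 0.33) against pooled controls. Those that fell, Dusp4, Spry4, Dusp6, Dusp1 and Spry2, encode inhibitors of kinase signalling, as does Spry1, which rose (log2 0.92 ± 0.17 SE, adjusted p = 0.00667). The call of Spry2 was lost with all probe sets averaged (adjusted p = 0.668), without tunicamycin replicate 2 (0.0663) and without either 8 h control (0.0595 and 0.059). Dusp4 had 24.3 and 20.0 in tunicamycin cells and 231 in control cells (log2 -3.23 ± 0.24 SE, adjusted p = 0.000115).

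**Figure D4:**
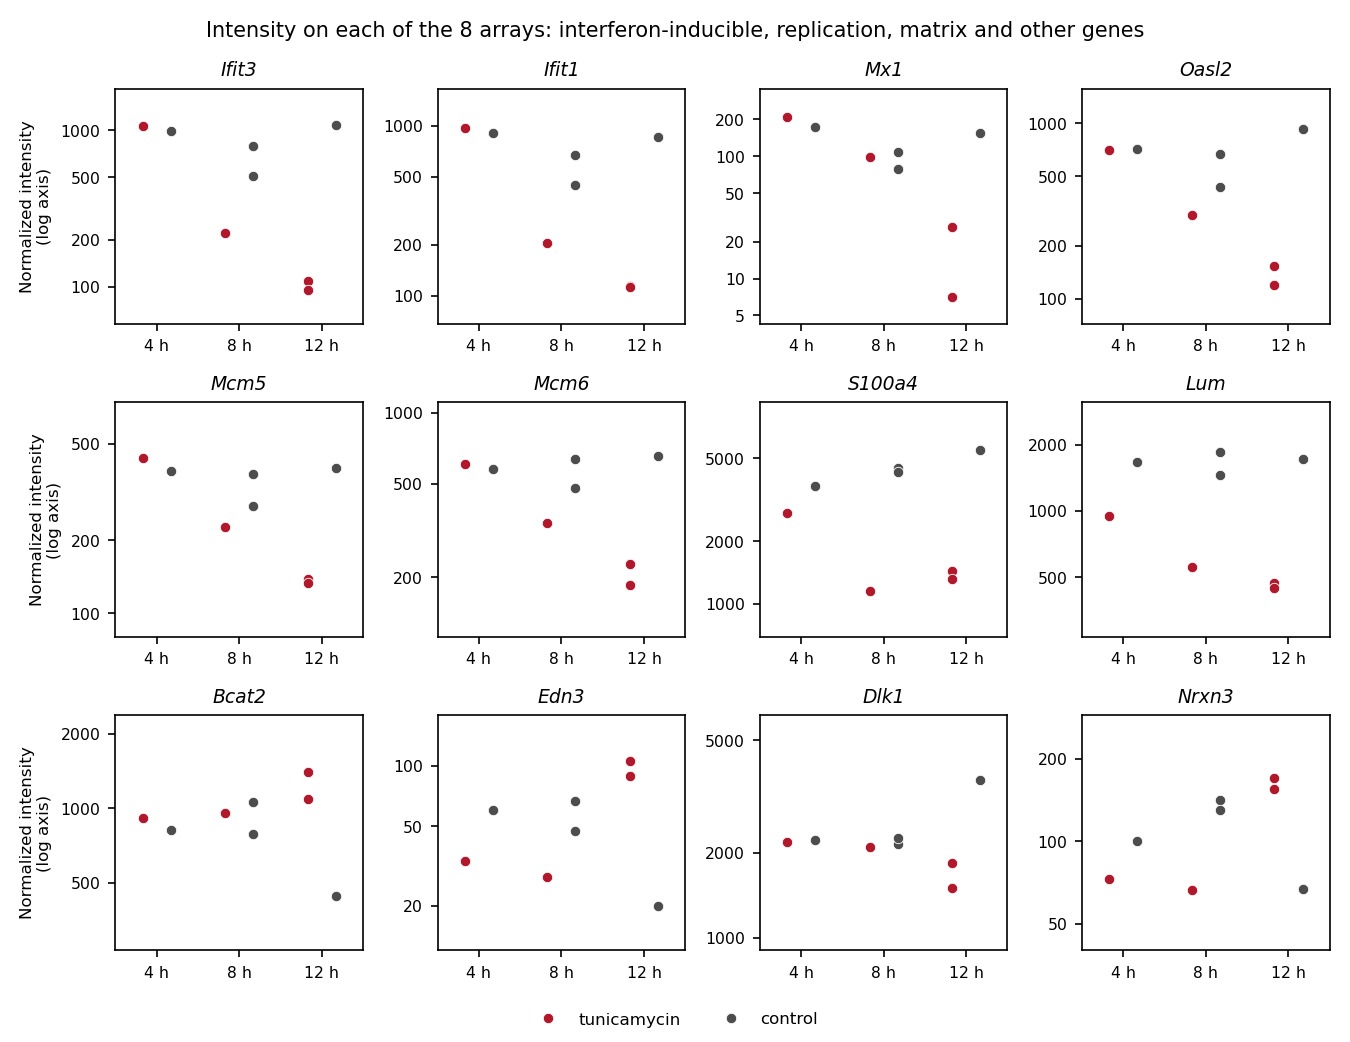
Normalized intensity (vertical axes, log scales) on each of the 8 arrays at 4, 8 and 12 h, tunicamycin in red and control in grey, 1 point per array, for 12 further genes. The first 8 genes are below every control in both 12 h tunicamycin arrays. In the last row the 12 h control lies apart from the other 3 controls.

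Lists of other stress programs are read against the 10.1% of all tested genes called higher and 10.9% called lower. Of 18 cytosolic heat shock genes, 0 rose and 1 fell, the small chaperone Cryab (log2 -0.80 ± 0.14 SE, adjusted p = 0.00565), whose call was lost against pooled controls (adjusted p = 0.191). Of 18 NRF2 and metallothionein genes, 3 rose and 2 fell. Hmox1, heme oxygenase, had 3375 and 3549 in tunicamycin cells and 798 in control cells (log2 2.11 ± 0.13 SE, adjusted p = 5.04e-05). Nqo1, a quinone reductase and standard NRF2 target, went the other way, with 53.0 and 54.2 in tunicamycin cells and 223 in control cells (log2 -2.0 ± 0.20 SE, adjusted p = 0.000461). Of 28 autophagy and lysosome genes, 2 rose and 2 fell, with the receptor gene Sqstm1 highest (log2 1.44 ± 0.11 SE, adjusted p = 0.000144). Of 15 clock genes, 4 rose and 0 fell: Ciart, Per1, Nfil3 and Cry1. The calls of Ciart (adjusted p = 0.0654 against pooled controls) and Cry1 (adjusted p = 0.107 with all probe sets averaged) were lost in alternatives. Of 18 glycolysis and hypoxia genes, 3 rose and 0 fell, and the call of each was lost in at least 1 alternative. Actb (10069 and 7680.5 in tunicamycin cells and 8894 in control cells) and Gapdh (7376 and 8152 in tunicamycin cells and 6707 in control cells) were not called.

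Several of the strongest responders lie outside these lists. Mreg, an organelle trafficking protein, had 218 and 214 in tunicamycin cells and 3.75 in control cells (log2 5.03 ± 0.34 SE, adjusted p = 9.11e-05), and the other controls lay between 14.2 and 20.1. The 12 h control of Mreg was under the filter's intensity of 15.3 and near the pseudocount, and against pooled controls its log2 difference was 3.86. Nucb2, a calcium-binding secreted protein, had 1588 and 1503 in tunicamycin cells and 154 in control cells (log2 3.3 ± 0.17 SE, adjusted p = 2.96e-05). Atp2a2, the ER calcium pump, had 5368 and 5304 in tunicamycin cells and 1691 in control cells (log2 1.66 ± 0.11 SE, adjusted p = 8.09e-05), and its 4 other probe sets above the filter moved the same way. The tunicamycin arrays lay close together in all 3. Stbd1, a glycogen-binding protein (log2 3.55 ± 0.44 SE, adjusted p = 0.00116), Car6, a carbonic anhydrase (log2 3.68 ± 0.60 SE, adjusted p = 0.00369), and Prr32 (log2 3.63 ± 0.48 SE, adjusted p = 0.00145) also rose, with control values of 10.6 (Stbd1), 7.57 (Car6) and 8.46 (Prr32), under the filter's intensity of 15.3. Serp1, which protects new membrane proteins (log2 1.63 ± 0.13 SE, adjusted p = 0.000144), and Selenok, an ER selenoprotein (log2 1.38 ± 0.14 SE, adjusted p = 0.000461), also rose. On the lower side, Nrep had 299.5 and 240.01 in tunicamycin cells and 1985 in control cells (log2 -2.87 ± 0.16 SE, adjusted p = 4.68e-05). The chemokine Cxcl12 had 2183 and 1987 in tunicamycin cells and 6094 in control cells (log2 -1.55 ± 0.11 SE, adjusted p = 0.000109). Idh1, the cytosolic isocitrate dehydrogenase (log2 -1.19 ± 0.12 SE, adjusted p = 0.000461), Plac8 (log2 -2.08 ± 0.15 SE, adjusted p = 0.000114) and Rgcc, a cell cycle regulator (log2 -3.02 ± 0.22 SE, adjusted p = 0.000115), also fell. Gas7 was 89.8 and 51.2 in tunicamycin cells and 652 in control cells (log2 -3.21 ± 0.36 SE, adjusted p = 0.000746), and against pooled controls its log2 difference was -1.79.

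Genes at the bottom of the scale are given by level only. Rgs16, a G protein regulator, was at 0 on both tunicamycin arrays and at 87.4 on the control array. Cygb, cytoglobin, was below the pseudocount of 2.96 on both tunicamycin arrays and at 55.9 on the control array. Olr1, a lipoprotein receptor, was below it on both tunicamycin arrays and at 32.1 on the control array. Prelid3a had 33.5 and 33.8 in tunicamycin cells and 0 in control cells, but the other 3 controls lay between 26.6 and 48.7. It is 1 of 61 genes called higher whose tunicamycin arrays did not exceed all 4 controls, and 50 genes called lower are alike in this. Bcat2, the mitochondrial branched-chain aminotransferase, had 1092 and 1402 in tunicamycin cells and 443 in control cells, while the other controls lay between 784 and 1058. Its adjusted p was 0.00197, and 0.0522 against pooled controls. Dlk1, a preadipocyte marker, had 1844 and 1504 in tunicamycin cells and 3618 in control cells, while the other controls lay between 2145 and 2261 (log2 -1.12 ± 0.14 SE, adjusted p = 0.00124, and log2 -0.58 against pooled controls). For such genes the 12 h control itself stood apart.

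Many of the 12 h calls were also made at 8 h. Of the 1100 genes called higher at 12 h, 640 (58.2%) were also called higher at 8 h and 37 at 4 h. Of the 1195 called lower, 586 (49%) were called lower at 8 h and 2 at 4 h. Over all tested genes 18.4% were called at 8 h (9.42% higher and 8.95% lower) and 0.394% at 4 h (0.357% higher and 0.0366% lower). The difference between the 12 h and 8 h effects was called for 0 genes by limma (1349 at an unadjusted p under 0.05). The median log2 effect of the genes called higher was 0.893, with 0.694 at 8 h and 0.273 at 4 h. For those called lower it was -0.946 at 12 h, with -0.619 at 8 h and -0.141 at 4 h. The choice of genes at 12 h favours the 12 h value. The 5 genes with opposite calls at 8 h and 12 h (Creb3l3, Lmbr1l, Narf, Nrxn3 and Otub1) had adjusted p-values of 0.229 to 0.234 for the difference. Against all 4 controls pooled none of the 5 was called at 12 h, with adjusted p-values of 0.0873 (Nrxn3) to 0.911 (Creb3l3).

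In time order, the median of the ER chaperones was 0.718, 1.49 and 1.65 for 4, 8 and 12 h, and that of the ATF4 and CHOP targets 0.691, 0.743 and 0.959. Ddit3 (log2 3.25, 3.23 and 3.09) and Herpud1 (3.51, 3.84 and 3.48) were near their 12 h effect by 4 h. Pdia4 was at 0.65, 2.36 and 3.45, with an adjusted p of 0.00469 for the difference between 12 h and 4 h. The interferon-inducible list was written after its values were seen, so its medians and its count below are a description fixed by that choice and support nothing. The interferon-inducible genes had medians of 0.0369, -0.601 and -1.54. The replication genes had 0.0504, -0.309 and -0.558. Differences between the 12 h and 4 h effects were called for 320 genes (2.93%), 140 (1.28%) toward higher and 180 (1.65%) toward lower. Among them were 6 of 16 ER chaperones and 8 of 17 isomerases and oxidases toward higher, and 12 of 35 interferon-inducible genes toward lower. That comparison rests on the 4 h tunicamycin array, whose 3' to 5' ratios stood apart (2.81 for beta-actin and 43.5 for pyruvate carboxylase, against 1.51 to 1.82 and 6.74 to 19.8 on the other arrays). The ratio of the hybridisation controls BioC to BioB was 0.645 to 0.856 on the 12 h arrays and 2.08 to 2.75 on the 4 h and 8 h arrays. The part of either in the difference between times was not tested.

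**Figure D5:**
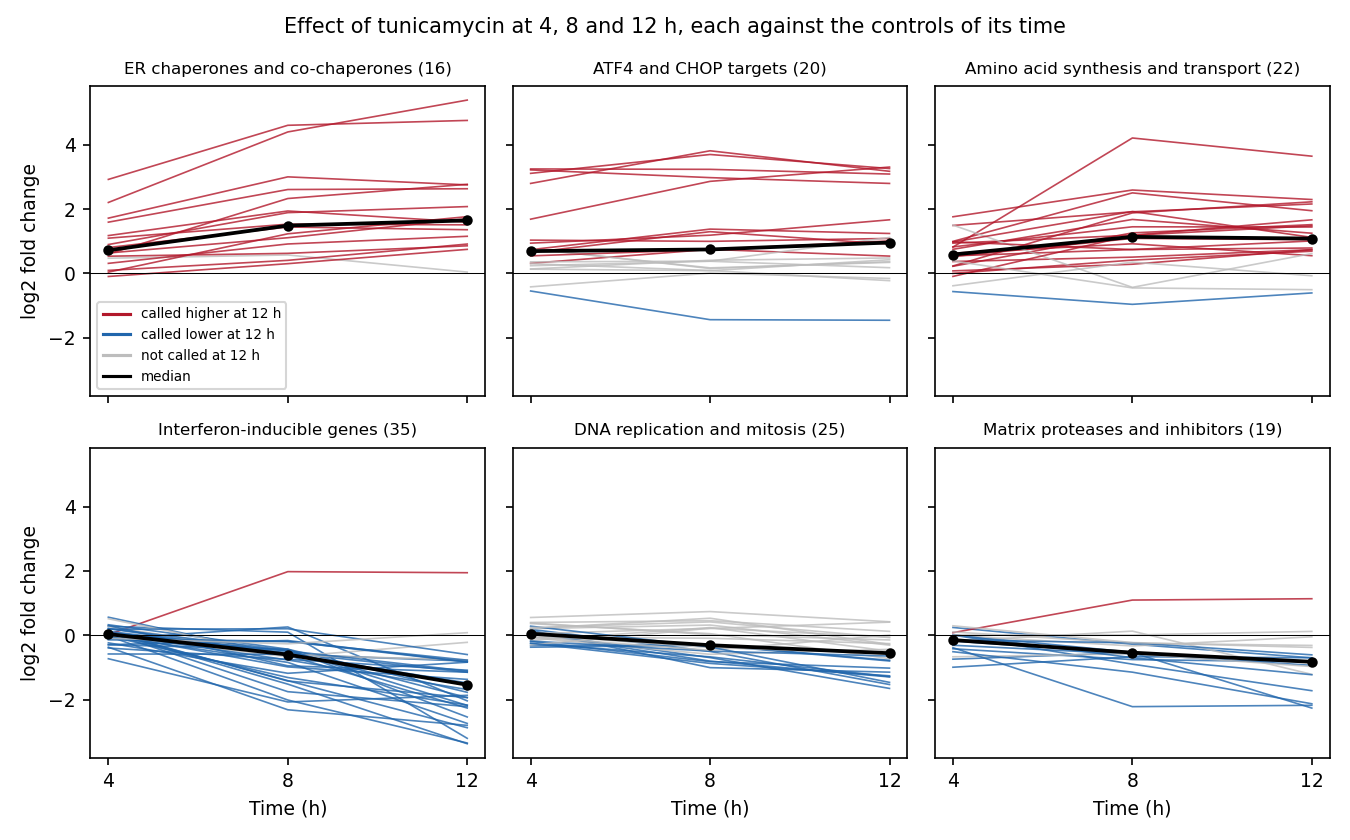
Log2 fold change of tunicamycin over the control of the same time (vertical axes) at 4, 8 and 12 h (horizontal axes) for the tested members of 6 lists, 1 line per gene, coloured by the call at 12 h, with the list median in black. The ER chaperones rise to a median of 1.65 at 12 h. The interferon-inducible genes, a list written after its values were seen, fall to -1.54.

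The authors' deposited table for 12 h gives each probe set a log10 ratio with a p-value, and its direction is not stated. It covers the same time point, so it is not independent of the values here. In the authors' deposited table, 1099 of the 1100 genes called higher here had a ratio above 0 and 1194 of the 1195 called lower had one below 0. Its p-values were under 0.05 for 2135 of the 2295 called genes. The ratios correlated with the effects computed here at r = 0.915 across 10916 genes, which are not independent replicates.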

How the data were processed

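RNA of 3T3-L1 adipocytes was extracted with Trizol and hybridised as biotin-labelled cRNA to Affymetrix arrays, per the labels' protocols. The deposited values are intensities on a linear scale, 1 per probe set, with values below 0. How they were scaled is not stated in the labels. In the authors' deposited 12 h table each probe set has a log10 ratio with its p-value, as given per the file headers. The authors' tables for 4 h and 8 h were not used here.

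Array medians differed by 1.20 on the log2 scale, so the arrays were quantile normalized. Values below 0 were set to 0 and log2(intensity + 2.96) was taken, with the 10th percentile of deposited values above 0 as pseudocount. Of 45101 probe sets, 34958 had 1 symbol in GEO's platform annotation, 932 several and 9211 none, and 34754 of the symbols' probe sets matched the RefSeq table. The probe set with the highest mean represented each of 18194 genes, and the 10916 genes above the 40th percentile were tested. With limma 3.58.1 in R 4.3.3, 6 group means were fitted to all 8 arrays with an intensity trend. The groups with 2 arrays gave 2 residual degrees of freedom, beside 6.37 prior ones. The number of arrays limits the precision. No arrays held identical values. The code was tested on simulated data.

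The genes and lists were chosen with earlier results of these data known, and the interferon-inducible list was written after its values were seen. Named genes are those with the largest changes overall and in each list, abundant called genes of no list, genes with a group below the pseudocount (levels only), the largest differences between times, and a set named whatever its result. Other genes in the text were chosen after their values were seen, and were recomputed under every alternative too. Promoters are those of named genes with a motif match, at most 6, in order of the size of the change, from RefSeq (GRCm38.p6). Alternatives were other scalings, pseudocounts, filters, probe set rules, variance settings, pooled controls, the 12 h arrays alone, and leaving out arrays. Python 3.11.15 and matplotlib 3.10.9 drew the figures.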

Additional observations from a re-analysis of the deposited data

Results flagged for a closer look

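The effect of tunicamycin differed between 12 h and 4 h in 140 genes toward higher and 180 toward lower values, by the interaction contrast of the limma fit at an adjusted p under 0.05. Toward higher, the log2 difference between the effects was 4.76 for Mreg, 3.18 for Sdf2l1 and 2.83 for Bcat1, which were described above as among the strongest increases. It was 3.56 for Prr32, 3.68 for 1810010H24Rik and 2.86 for Atp2a3, a calcium pump of intracellular stores. It was 3.9 for the kinase gene Dyrk1b and 2.91 for Edn3, an endothelin. For both genes the call at 12 h was lost against all 4 controls pooled (adjusted p of 0.549 and 0.0516).

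Toward lower, it was -3.47 for Ifit3, -2.99 for Ifit1, -2.83 for Usp18 and -2.73 for Oasl2, all inducible by interferon, and -2.92 for Gm4951. It was -3.36 for Pnpla3, -3.2 for the collagen gene Col27a1 and -2.79 for Dusp4. These differences rest on 1 tunicamycin and 1 control array at 4 h. The 4 h tunicamycin array had a beta-actin 3' to 5' ratio of 2.81, and its part in these differences was not tested.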

How the results depend on the processing

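The number of calls depended on the scaling, the filter, the probe set rule, the variance settings and the controls used, with only 1 control array at 12 h. The 1100 higher and 1195 lower genes became 552 and 556 without the intensity trend, 602 and 707 with all probe sets of a gene averaged, 275 and 362 without the filter, and 21 and 53 on the deposited scaling. Against all 4 controls pooled they became 1761 and 1947, which include 974 and 1083 of the main calls. Leaving out 1 array at a time gave 839 to 947 higher and 885 to 1139 lower genes. The difference between the 12 h and 8 h effects was called for 0 genes, and for 170 without the filter. The difference between the 12 h and 4 h effects was called in 140 and 180 genes. It was called in 0 and 0 on the deposited scaling, 0 and 0 without the intensity trend, 29 and 28 with probe sets averaged, and 51 toward higher without the filter. Leaving out 1 array gave 48 to 112 and 66 to 202, with 48 and 67 without control 8 h replicate 1 and 48 and 66 without control 8 h replicate 2. Of 232 named calls, 188 were lost with the sign kept on the deposited scaling, 152 without the filter, 67 without the intensity trend and 28 against pooled controls. With probe sets averaged 48 of the 226 with a value were lost in this way, and 20 to 22 when 1 array was left out. Beside these counts, calls were also lost with a change of sign, 1 on the deposited scaling (Pgk1 at -0.0707) and 2 with probe sets averaged (Plat at 0.0729 and Lipe at 0.00824). The cause was not tested. No paired analysis was possible because the 12 h groups share only 1 replicate number. The counts above for 1 array left out cover only the 4 replicate arrays (8 h control and 12 h tunicamycin). Leaving out the 12 h control leaves no contrast and was not run. The 4 h control and the 8 h tunicamycin array were not left out either. The setting without the 4 h tunicamycin array, chosen after seeing the data, ended 0 named calls. That array is the only one of its group, so it adds nothing to the 12 h contrast or to the residuals. The arrays were also normalized and filtered before it was left out. This setting therefore cannot show the part of that array in the 12 h calls.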
